A study of Mus musculus with 2 samples.

Results

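RM-1 is a mouse prostate cancer (PCa) cell line that was transformed by introduced ras and myc genes, and 9 genes of that pathway were followed in tumors grown from it. They are the drivers Myc, Hras and Nras and 6 genes that are switched on by ERK signaling and many of which feed back on it, namely Dusp6, Spry2, Spry4, Etv4, Etv5 and Phlda1. The 9 genes were taken by name from the 32285 genes in the files, with no threshold on a measured value, although earlier results of these data were known when they were chosen. Single cells of orthotopic RM-1 tumors in C57BL/6 mice, with the genotype given as WT, were sequenced by a droplet 3′ scRNA-seq method, with 1 library after vehicle (control) and 1 after enzalutamide (ENZ), an antiandrogen drug, from a pair of mice. RM-1 is 1 established line, and immune cells were enriched before loading, so that cell shares follow the sort and were not compared.

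The control library held 170830346 UMIs, each a tagged RNA molecule, and the ENZ library 162030149. Cancer cells were barcodes with at least 8000 UMIs, at most 20% mitochondrial UMIs, at most 1 UMI of the leukocyte gene Ptprc and at least 5 UMIs summed over Cacna2d1, Rbfox2, Kif21a and Rhox5. The control tumor gave 3807 such cells, with a median of 21957 UMIs, and the ENZ tumor 4290, with a median of 22694. Fibroblasts numbered 86 and 75 and named immune cells 7404 and 5286, with medians of 3239 and 3658 UMIs in the immune cells. Mast cells, 19 and 10 of the immune cells, were too few to be set beside the other types, and statements on the order of classes concern the 7 classes of 50 or more cells. Levels are given as UMIs of a gene per 1000000 UMIs summed over a class (CPM), control first, with exact 95% Poisson intervals in the plots. With 1 library per condition there is no replicate, so that no test was made. Intervals cover counting error only, and treatment, mouse and library preparation cannot be told apart.

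The label of the cancer cells was checked before the results. Their summed levels of the luminal keratins Krt8 (437 and 508 CPM) and Krt18 (357 and 358 CPM) were high, whereas the prostate genes Pbsn and Hoxb13 had no UMI. Of the control cancer cells 93.5%, and of the ENZ cancer cells 96.2%, lay in clusters named cancer cell. A further 72 and 74 lay in the fibroblast cluster, since fibroblasts also carry Cacna2d1 (203 and 249 CPM) and Rbfox2 (255 and 265 CPM), and 106 and 5 lay in a cluster that held markers of cancer cells and of neutrophils. The 7 fibroblast markers summed to 1053 and 1024 CPM in cancer cells, led by Col3a1 at 522 and 520 CPM, with none at 0, and the 6 neutrophil markers to 127 and 85.1 CPM, also with none at 0. Their part in the cancer cell values was not tested beyond the values given without these clusters. Likewise 55 of the 86 control and 58 of the 75 ENZ fibroblasts met the cancer cell rule and were counted on both sides. The libraries shared 43 barcodes of at least 500 UMIs, 8 of them cancer cells in both. Close to the threshold on the 4 genes, 24 control and 24 ENZ cancer cells held a sum of 5 or 6 UMIs, and 18 and 7 further barcodes a sum of 3 or 4.

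Ras proteins are small GTPases that pass growth factor signals through the kinases Raf, MEK and ERK, and Myc is a transcription factor that drives genes of growth and ribosome production and is often gained in prostate cancer. Active ERK raises the transcription of its own brakes. Dusp6 encodes a phosphatase that inactivates ERK in the cytoplasm, and the Sprouty proteins Spry2 and Spry4 dampen signaling between receptor tyrosine kinases and Raf. Etv4 and Etv5 encode ETS transcription factors of the PEA3 group, which act downstream of growth factor and ERK signaling, and Phlda1 encodes a protein with a pleckstrin homology-like domain that is induced by growth factors and stress.

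Against the immune cells, the members of the set went in different directions. Hras, Spry2, Spry4 and Etv4 were at least 2-fold higher in cancer than in immune cells in both libraries, Myc was at least 2-fold lower, and Nras, Dusp6, Etv5 and Phlda1 passed neither line. The calls of Spry2 and Myc lay close to the line: Spry2, at 2.004-fold in the ENZ library, fell short of it under 8 of 18 alternatives, Myc under 4 and Hras under 1. That made 4 of 9 genes higher, where 27.8% of the 10127 genes compared were, and 1 of 9 lower, where 19.1% were. Against fibroblasts only Etv4 was higher and only Myc lower by that measure, 1 of 9 in each direction, where 11.4% and 15.3% of 10146 genes were. Without the fibroblasts that also met the cancer cell rule, 3 genes (Nras, Etv4 and Etv5) were higher and Myc alone was lower. Between ENZ and control cancer cells, none of the 8 members with at least 10 CPM differed by 1.5-fold, as 0.993% of 8758 genes did downward and 0.514% upward.

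**Figure D1:**
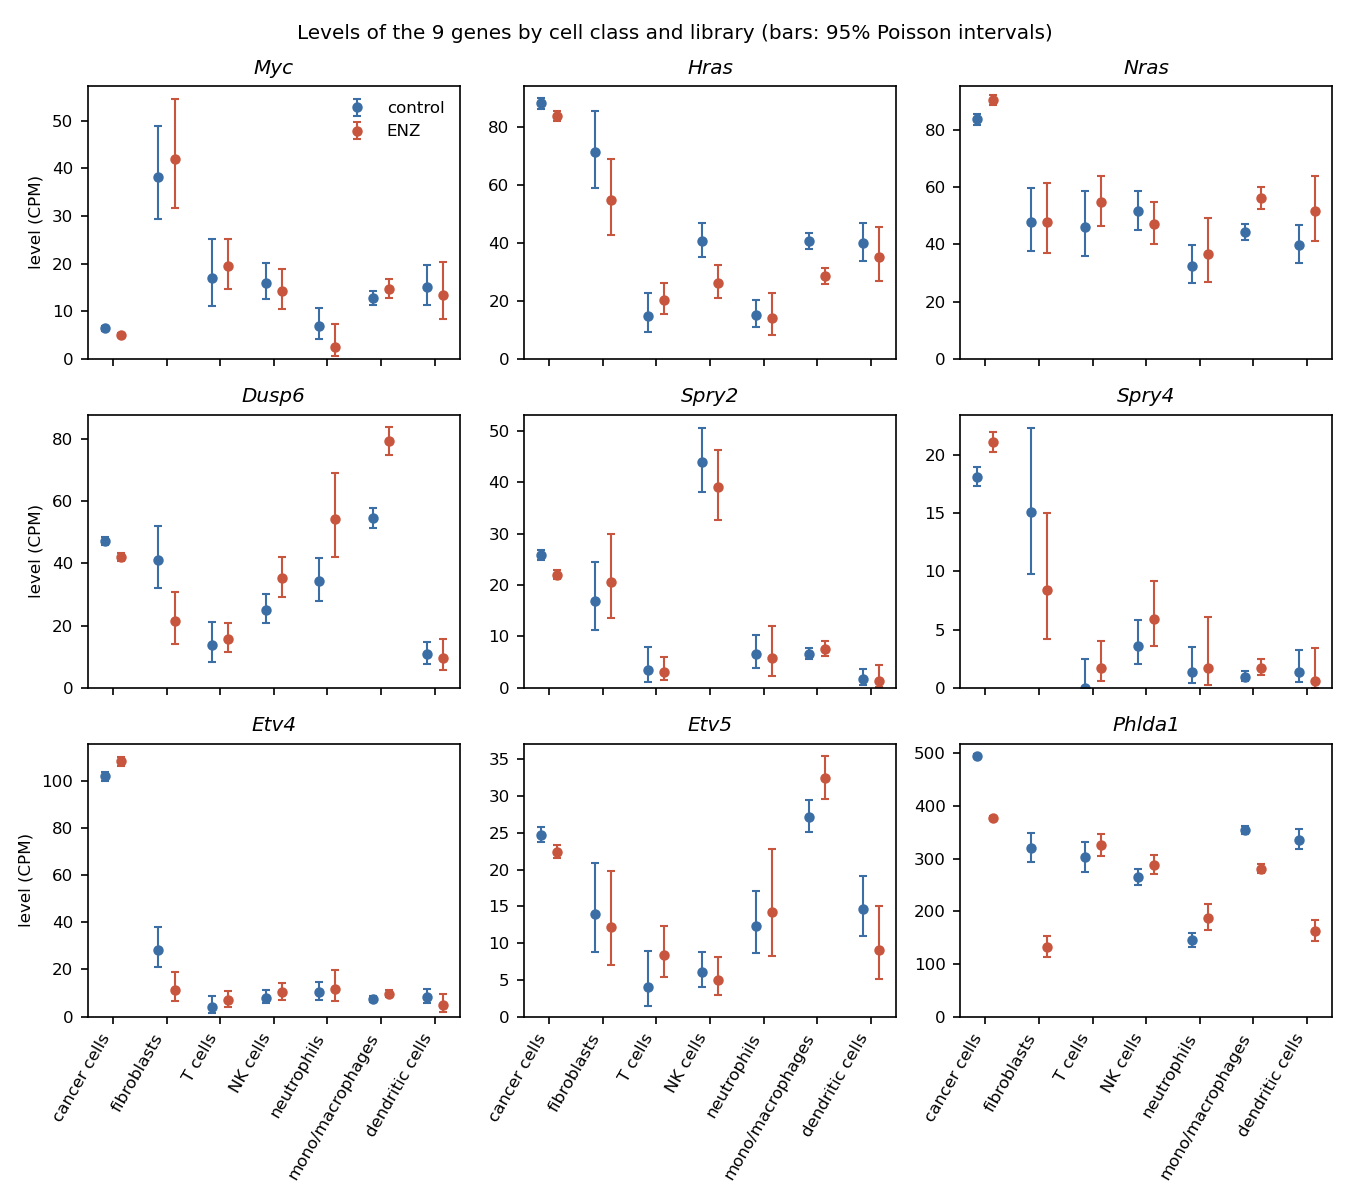
Levels of the 9 genes (y axis, CPM, from 0) in cancer cells, fibroblasts and 5 named immune types (x axis) in the control (blue) and ENZ (red) libraries, with exact 95% Poisson intervals as bars. Etv4 stood at 102 and 108 CPM in cancer cells and at no more than 28.5 CPM in the other classes shown, whereas Myc was highest in fibroblasts, at 38.1 and 41.9 CPM.

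Myc, at chr15:61985391-61990374 (GRCm38, plus strand), was the member with the fewest UMIs in cancer cells. It had 641 UMIs in control and 558 in ENZ cancer cells, or 6.39 and 4.91 CPM. Fibroblasts had 38.1 and 41.9 CPM, T cells 17.0 and 19.4 CPM, NK cells 16.0 and 14.2 CPM, dendritic cells 15.1 and 13.4 CPM, monocytes or macrophages 12.7 and 14.6 CPM, and neutrophils 6.87 and 2.51 CPM. Both fibroblast values thus lay above all others, and the values of cancer cells and neutrophils overlapped at the low end. The ratio of cancer cells to fibroblasts was 0.168 (95% interval 0.129 to 0.221) in the control and 0.117 (0.0886 to 0.157) in the ENZ library, and to all immune cells together 0.489 (0.433 to 0.552) and 0.340 (0.297 to 0.390). In barcodes of at most 100 UMIs, which hold free RNA, Myc stood at 9.92 and 7.45 CPM, above the cancer cells. Restricted to clusters named cancer cell, the level was 5.73 and 4.51 CPM. The line is described as carrying an introduced myc gene, and whether transcripts of introduced myc or ras copies were counted under Myc, Hras or Nras was not tested.

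A list of 25 known Myc targets of ribosome production and growth was compared in the same way. Of the 24 that could be compared, 18 were at least 2-fold higher in cancer than in immune cells in both libraries, against the 27.8% of all genes, and none lower, and 13 of 24 were higher than in fibroblasts and none lower, where 11.4% of all genes were higher and 15.3% lower. Npm1, a nucleolar chaperone, was at 2909 and 2552 CPM in cancer cells against 828 and 783 CPM in immune cells and 1133 and 880 CPM in fibroblasts. Eif4a1, an RNA helicase of translation initiation, was at 902 and 767 CPM against 381 and 323 CPM and 408 and 284 CPM. Of the 13 partners and regulators of Myc that could be compared with immune cells, 1 was higher in cancer cells (Mxd3, 15.2 and 11.1 against 2.31 and 1.75 CPM). The 3 lower ones were Mxd1 (21.7 and 16.8 against 393 and 319 CPM), Mxi1 (66.3 and 61.9 against 250 and 277 CPM) and the kinase gene Pim1 (34.3 and 33.4 against 445 and 489 CPM). The proteins of Mxd3, Mxd1 and Mxi1 all bind Max and repress, so that genes of such repressors went both ways. Over all genes 27.8% were higher and 19.1% lower.

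Hras (chr7:141189105-141194005, minus strand) and Nras (chr3:103058285-103067914, plus strand) encode Ras proteins. The bases before their start sites are shown with those of Dusp6, as the drivers and the ERK phosphatase whose immune and cancer cell values diverged below. They are 250 bases each from RefSeq (GRCm38.p6), 5′ to 3′ on the gene's strand, at chr3:103058035-103058284 for Nras, chr7:141194005-141194254 for Hras and chr10:99262981-99263230 for Dusp6.
Nras: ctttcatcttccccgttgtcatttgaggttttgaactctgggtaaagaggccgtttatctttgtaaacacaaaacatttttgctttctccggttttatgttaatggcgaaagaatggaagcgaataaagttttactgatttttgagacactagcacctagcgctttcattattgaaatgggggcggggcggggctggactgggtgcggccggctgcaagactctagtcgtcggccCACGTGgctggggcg
Hras: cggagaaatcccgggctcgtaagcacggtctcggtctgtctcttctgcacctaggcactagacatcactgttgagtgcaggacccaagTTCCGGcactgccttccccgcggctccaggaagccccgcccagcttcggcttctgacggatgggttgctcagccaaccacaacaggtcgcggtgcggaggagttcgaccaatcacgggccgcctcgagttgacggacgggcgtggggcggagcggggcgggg
Dusp6: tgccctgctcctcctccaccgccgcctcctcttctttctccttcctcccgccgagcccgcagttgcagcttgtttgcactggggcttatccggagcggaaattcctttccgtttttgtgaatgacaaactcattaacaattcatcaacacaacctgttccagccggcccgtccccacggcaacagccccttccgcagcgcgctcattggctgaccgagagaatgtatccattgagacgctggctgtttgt
Capitals mark the letters CACGTG, the E-box to which Myc with Max can bind, and CCGGAA or its reverse complement TTCCGG, a core to which ETS factors can bind, searched on both strands without overlap between the motifs. Nras held 1 CACGTG, starting 15 bases before the start site, and Hras held 1 TTCCGG, starting 162 bases before it. Among 32851 promoter windows of the same length, 6.02% held CACGTG and 12.0% held CCGGAA on either strand. The windows of Dusp6, Spry2 and Etv5 held neither run of letters. A match is only a run of letters and says nothing on binding in these cells.

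Hras was highest in cancer cells, with 88.4 and 84.0 CPM, followed by fibroblasts with 71.4 and 54.9 CPM. NK cells had 40.7 and 26.3 CPM, dendritic cells 39.9 and 35.2 CPM, monocytes or macrophages 40.7 and 28.5 CPM, T cells 14.95 and 20.4 CPM, and neutrophils 15.1 and 14.2 CPM. Cancer cells lay above fibroblasts and fibroblasts above each immune type in both libraries. NK cells, dendritic cells and monocytes or macrophages could not be ordered among themselves, nor could T cells and neutrophils. Cancer cells exceeded immune cells 2.36-fold (2.23 to 2.51) in the control and 3.12-fold (2.88 to 3.38) in the ENZ library, and fibroblasts 1.24-fold (1.03 to 1.496) and 1.53-fold (1.21 to 1.96).

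Nras was also highest in cancer cells but was spread more evenly. It stood at 83.7 and 90.4 CPM there, at 47.8 and 48.0 CPM in fibroblasts, and between 32.6 and 56.2 CPM in the 5 larger immune types. The ratio to immune cells was 1.91 (1.81 to 2.02) and 1.69 (1.60 to 1.79), short of 2-fold in both libraries, and to fibroblasts 1.75 (1.40 to 2.21) and 1.88 (1.47 to 2.45).

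**Figure D2:**
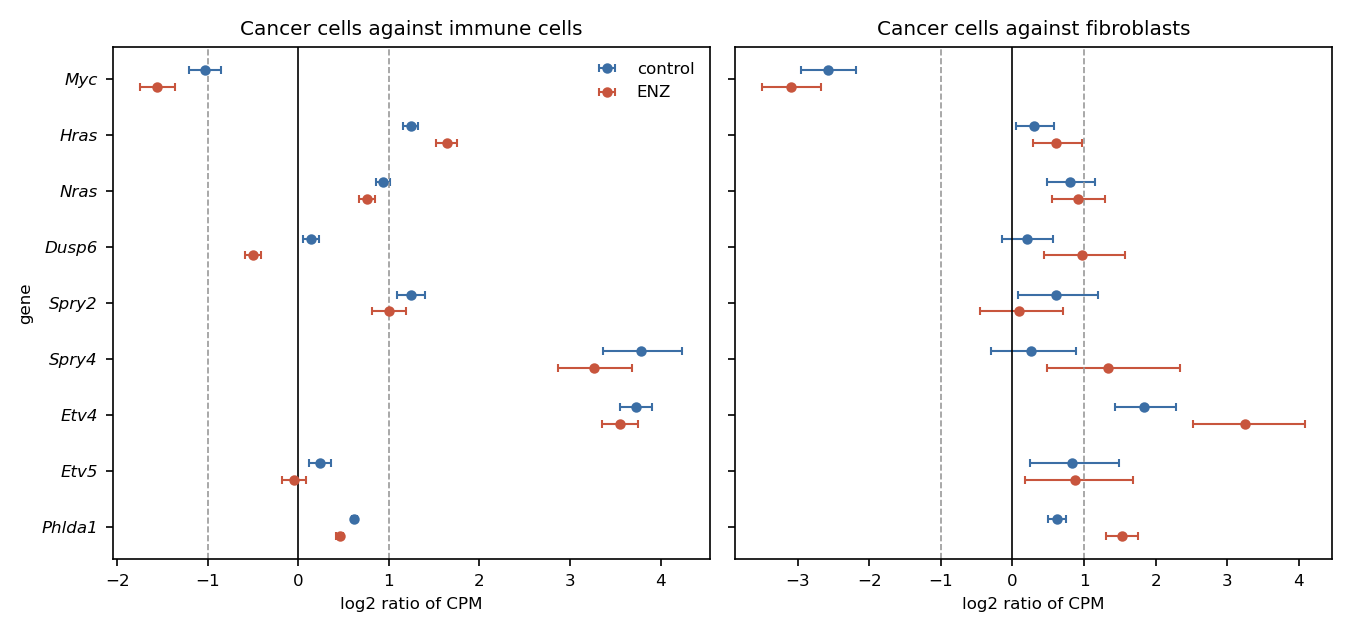
Log2 ratio of the level in cancer cells to that in immune cells (left) and fibroblasts (right) for each of the 9 genes in the control (blue) and ENZ (red) libraries. Bars are 95% counting intervals and dashed lines mark 2-fold. Against immune cells Spry4 lay at 3.79 and 3.26 and Etv4 at 3.73 and 3.55, and against fibroblasts Myc lay at -2.58 and -3.09.

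Etv4 (chr11:101769742-101785371, minus strand) and Spry4 (chr18:38586247-38601415, minus strand) separated cancer from immune cells most strongly among the 9. Etv4 had 102 and 108 CPM in cancer cells, 28.5 and 11.4 CPM in fibroblasts and 7.71 and 9.27 CPM in immune cells, where no named type of 50 or more cells exceeded 11.7 CPM. The ratio to immune cells was 13.2 (11.7 to 14.98) and 11.7 (10.3 to 13.4), and to fibroblasts 3.58 (2.69 to 4.88) and 9.49 (5.75 to 17.0). Spry4 had 18.1 and 21.1 CPM in cancer cells and 1.31 and 2.20 CPM in immune cells, a ratio of 13.8 (10.3 to 18.9) and 9.58 (7.30 to 12.8). The 405 control T cells held 0 Spry4 UMIs, which allows up to 2.04 CPM. In fibroblasts Spry4 was at 15.1 and 8.38 CPM, with a ratio of cancer cells to fibroblasts of 1.20 (0.809 to 1.86) in the control, where no difference could be told at this depth, and of 2.52 (1.40 to 5.05) in the ENZ library.

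Free RNA from cancer cells can add to such low immune levels. Among keratin genes of the cancer cells, which the cancer cell rule does not use, the immune level was 3.45% (3.13% to 3.80%) and 4.99% (4.53% to 5.49%) of the cancer cell level for Krt18 and 4.71% (4.37% to 5.07%) and 6.66% (6.21% to 7.14%) for Krt8. The immune level of Etv4 was 7.56% (6.67% to 8.53%) and 8.54% (7.45% to 9.76%) of that in cancer cells and that of Spry4 7.24% (5.28% to 9.70%) and 10.4% (7.80% to 13.7%). Both thus lay above Krt8 and Krt18 in each library, with intervals that did not overlap. The profile of free RNA was subtracted at a set 5% of the UMIs of each class, a share that was not measured. With it subtracted, the log2 ratio of cancer to immune cells was 4.52 and 4.49 for Etv4, in place of 3.73 and 3.55. For Spry4 it was 4.29 and 3.91 in place of 3.79 and 3.26. How much of the remaining level was free RNA was not tested. The control fibroblasts also held more RNA of other classes than the ENZ fibroblasts did, with Rhox5 at 152 and 30.5 CPM and the neutrophil gene S100a9 at 224 and 15.2 CPM. The part of this in the fibroblast values was not tested.

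The paralogs of both genes behaved otherwise. Spry2 (chr14:105891947-105896819, minus strand) was at 25.8 and 21.98 CPM in cancer cells, 17.0 and 20.6 CPM in fibroblasts, and 44.1 and 39.1 CPM in NK cells, where both values lay above those of the other classes of 50 or more cells. The cluster named NK cell also held T cell markers. All other named immune types of 50 or more cells had at most 7.59 CPM. Cancer cells thus exceeded immune cells as a whole 2.37-fold (2.13 to 2.64) and 2.004-fold (1.76 to 2.28), with both NK values higher than the cancer cells. Etv5 (chr16:22381309-22439719, minus strand) was at 24.7 and 22.4 CPM in cancer cells and 27.2 and 32.4 CPM in monocytes or macrophages, with 14.6 and 9.11 CPM in dendritic cells, 12.4 and 14.2 CPM in neutrophils and 13.9 and 12.2 CPM in fibroblasts. Its ratio of cancer to immune cells was 1.18 (1.09 to 1.28) in the control and 0.969 (0.884 to 1.06) in the ENZ library, and neither sign held under all 18 alternatives.

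Dusp6 (chr10:99263231-99267489, plus strand) was at 47.2 and 42.0 CPM in cancer cells and at 54.6 and 79.3 CPM in monocytes or macrophages. Neutrophils had 34.4 and 54.4 CPM, NK cells 25.1 and 35.2 CPM, fibroblasts 41.2 and 21.3 CPM, T cells 13.6 and 15.6 CPM, and dendritic cells 10.7 and 9.72 CPM. Monocytes or macrophages held the highest value in each library, and T and dendritic cells the lowest. Against all immune cells the cancer cell ratio was 1.10 (1.04 to 1.17) in the control and 0.707 (0.667 to 0.751) in the ENZ library. The control value changed sign under 3 of 18 alternatives, with a log2 ratio of -0.21 against monocytes or macrophages alone, -0.14 against immune cells of at least 8000 UMIs and -0.08 under median-of-ratios scaling.

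Phlda1 (chr10:111506286-111508645, plus strand) was found in each of the 7 classes. It was at 494 and 377 CPM in cancer cells, 320 and 131 CPM in fibroblasts, 355 and 280 CPM in monocytes or macrophages, 302 and 325 CPM in T cells, 265 and 288 CPM in NK cells, 336 and 163 CPM in dendritic cells and 145 and 187 CPM in neutrophils. Of these classes cancer cells were highest in both libraries, and they exceeded immune cells as a whole 1.54-fold (1.51 to 1.57) and 1.37-fold (1.34 to 1.41). Both Phlda1 and Spry4 overlap annotated genes on the opposite strand.

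The comparison of ENZ with control cancer cells addressed whether the drivers or their feedback genes moved with treatment. Phlda1 went from 494 to 377 CPM, a ratio of 0.762 (0.753 to 0.772), and only 2.82% of the 8758 genes with at least 10 CPM had a lower ratio. Dusp6 went from 47.2 to 42.0 CPM (ratio 0.890, 0.855 to 0.927), Spry2 from 25.8 to 21.98 CPM (0.851, 0.805 to 0.899) and Etv5 from 24.7 to 22.4 CPM (0.906, 0.857 to 0.958). Spry4 went from 18.1 to 21.1 CPM (1.16, 1.09 to 1.24) and Etv4 from 102 to 108 CPM (1.06, 1.04 to 1.09). The 6 feedback genes thus had ratios on both sides of 1, with a median log2 ratio of -0.16 against 0.05 over all genes, and except for Phlda1 they lay within the range of -0.31 to 0.33 that held the 5th to the 95th percentile. Of the drivers, Hras had a ratio of 0.951 (0.924 to 0.979) and Nras of 1.08 (1.05 to 1.11). Myc, with under 10 CPM in both libraries, had a ratio of 0.768 (0.684 to 0.861). In cells of clusters named cancer cell Phlda1 was at 501 and 379 CPM.

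**Figure D3:**
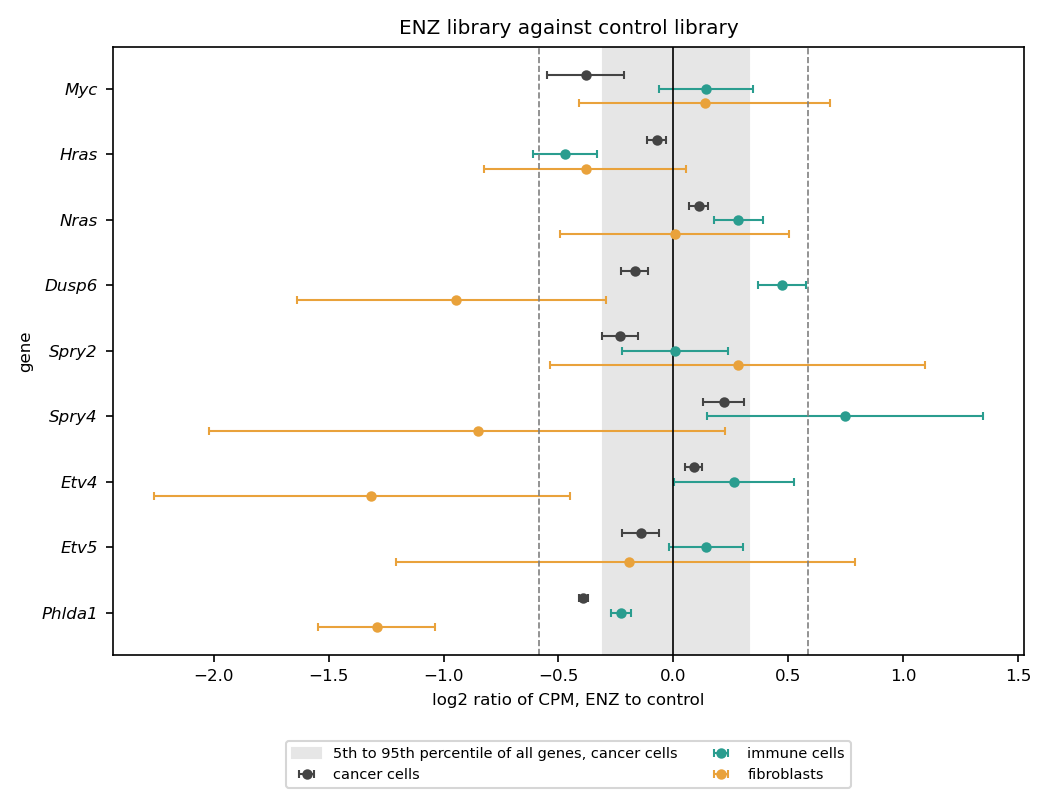
Log2 ratio of ENZ to control for each of the 9 genes in cancer cells (dark grey), immune cells (green) and fibroblasts (orange). Bars are 95% counting intervals, dashed lines mark 1.5-fold, and the grey band holds the 5th to the 95th percentile of all genes with at least 10 CPM in cancer cells, where Phlda1 at -0.39 and Myc at -0.38 lay below it.

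Immediate early and heat shock genes, which respond to signaling and also to the handling of tissue, moved beside Phlda1. All 12 genes of that list had a lower level in ENZ than in control cancer cells, 7 of them past 1.5-fold, as were 0.993% of all genes, and their sum went from 6318 to 4079 CPM (ratio 0.646, 0.643 to 0.648). The 7 were Fos (1001 to 537 CPM), Jun (1087 to 678 CPM), Ier2 (667 to 394 CPM), Dusp1 (405 to 219 CPM), Hspa1a (166 to 89.1 CPM), Hspa1b (164 to 104 CPM) and Dnajb1 (149 to 93.6 CPM), whereas Fosb (354 to 287 CPM) and Atf3 (149 to 112 CPM) had the ratios nearest to 1. The sum was also lower in ENZ immune cells, at 0.814 of control, and in ENZ fibroblasts, at 0.911 with 9 of 12 genes lower. Where cancer cells of both libraries were matched on the share of UMIs from this list, the log2 ratio of Phlda1 was -0.13 in place of -0.39, that of Spry2 -0.05 in place of -0.23, that of Dusp6 -0.03 in place of -0.17 and that of Myc -0.0049 in place of -0.38, while that of Spry4 was 0.26 in place of 0.22. Hras moved away from 0 under the same match, to -0.23 from -0.07, Nras (0.06) and Etv4 (0.02) moved toward it, and Etv5 stayed at -0.14. Because the list responds to signaling as well as to handling, the match evens out both. Which of them these shifts follow was not tested.

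In immune cells Spry4 had the highest ENZ to control ratio of the 9 genes (1.68, 1.11 to 2.55, at 1.31 and 2.20 CPM) and Etv4 one of 1.20 (1.002 to 1.44). In barcodes of at most 100 UMIs Spry4 stood at 8.09 and 17.1 CPM (ratio 2.11, 1.35 to 3.36). Etv4 stood there at 68.1 and 92.7 CPM (1.36, 1.15 to 1.60). The part of this free RNA in the 2 immune ratios was not tested. The intervals of the immune cell ratios of Myc (1.10, 0.956 to 1.27), Spry2 (1.01, 0.856 to 1.18) and Etv5 (1.10, 0.987 to 1.23) held 1. Dusp6 went from 42.8 to 59.4 CPM (ratio 1.39, 1.29 to 1.49), Nras from 43.9 to 53.4 CPM (1.22, 1.13 to 1.31), Hras from 37.4 to 27.0 CPM (0.721, 0.656 to 0.793) and Phlda1 from 322 to 275 CPM (0.854, 0.829 to 0.881). The mix of immune types differed between the libraries, and by type the Dusp6 ratio was 1.45 (1.34 to 1.57) in monocytes or macrophages, 1.58 (1.14 to 2.18) in neutrophils, 1.40 (1.07 to 1.83) in NK cells, 1.15 (0.663 to 2.05) in T cells and 0.905 (0.472 to 1.66) in dendritic cells. The Phlda1 ratio was 0.791 (0.761 to 0.821) in monocytes or macrophages and 0.484 (0.423 to 0.553) in dendritic cells. It was 1.29 (1.10 to 1.53) in neutrophils, 1.09 (0.996 to 1.18) in NK cells and 1.08 (0.960 to 1.21) in T cells. For Hras it was 0.701 (0.623 to 0.787) in monocytes or macrophages, 0.647 (0.496 to 0.838) in NK cells and 1.37 (0.825 to 2.34) in T cells. Its intervals in neutrophils and dendritic cells held 1. In fibroblasts Phlda1 went from 320 to 131 CPM (0.409, 0.343 to 0.487), Etv4 from 28.5 to 11.4 CPM (0.402, 0.209 to 0.731) and Dusp6 from 41.2 to 21.3 CPM (0.518, 0.321 to 0.816), beside the unequal levels of Rhox5 and S100a9 given above. Of the 9 genes, 3 had a fibroblast ratio above 1, each with an interval that held 1. They were Spry2 (1.21, 0.689 to 2.14), Myc (1.10, 0.751 to 1.60) and Nras (1.004, 0.709 to 1.42).

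Cancer cells also differed among themselves. A cell was called dividing when it held at least 5 UMIs of 6 cell cycle markers (Mki67, Top2a, Cenpf, Birc5, Ube2c and Cdk1) after thinning to 8000 UMIs, which 1283 control and 1200 ENZ cancer cells did. Of these, 73 and 61 held exactly 5, and 104 and 90 other cells held 4. The other cells were split into 3 equal groups by their keratin UMIs (Krt8 and Krt18) and, separately, by their immediate early and heat shock UMIs, both after thinning. The following ratios are of cells in clusters named cancer cell, so that fibroblasts that met the cancer cell rule do not enter. They use all UMIs of a cell, and the groups differed in UMIs per cell. Over all cancer cells of the rule, dividing cells held more than the others, and cells with the most keratin more than those with the least. Those with the most immediate early and heat shock UMIs held fewer than those with the least. The groups were not matched on depth.

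Hras was the driver that went with division. It was at 103 CPM in dividing and 75.6 CPM in other control cells (ratio 1.36, 1.30 to 1.42) and at 106 and 70.0 CPM in the ENZ library (1.52, 1.46 to 1.58). Its level was also higher in the group with the most keratin than in that with the least, by 1.49-fold (1.37 to 1.62) and 1.48-fold (1.37 to 1.60). Nras did not differ with division beyond counting error, at 0.998 (0.955 to 1.04) and 1.01 (0.974 to 1.06). Myc was lower in dividing cells, at 4.25 against 6.88 CPM in the control (0.619, 0.513 to 0.744) and 2.99 against 5.50 CPM in the ENZ library (0.544, 0.442 to 0.667). It was also lower where keratin was high (0.430, 0.333 to 0.554, and 0.491, 0.377 to 0.639). In both splits Myc was thus lower in the group with more UMIs per cell. In barcodes of at most 100 UMIs it stood at 9.92 and 7.45 CPM, above the cancer cells. The part of free RNA in these Myc ratios was not tested.

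Phlda1 was lower in dividing cells, at 437 against 551 CPM (0.793, 0.779 to 0.808) and 305 against 428 CPM (0.713, 0.698 to 0.728). Its largest difference was with the immediate early and heat shock list, of which it is not a member, at 689 CPM in the highest against 356 CPM in the lowest group of control cells (1.94, 1.88 to 1.999) and 544 against 296 CPM in the ENZ library (1.84, 1.79 to 1.90). Spry2 was higher in the highest group of that list by 1.52-fold (1.33 to 1.72) and 1.30-fold (1.15 to 1.48), and Dusp6 by 1.23-fold (1.11 to 1.35) and 1.34-fold (1.23 to 1.47). Myc was higher there as well, by 2.89-fold (2.22 to 3.79) and 1.63-fold (1.27 to 2.099), again in the group with fewer UMIs per cell. Hras was lower, at 0.717 (0.660 to 0.778) and 0.702 (0.651 to 0.756), as was Nras, at 0.861 (0.797 to 0.928) and 0.919 (0.861 to 0.979). In the same split Spry4 was at 1.04 (0.885 to 1.23) and 1.21 (1.06 to 1.38). Etv5 was at 0.939 (0.816 to 1.08) and 0.993 (0.873 to 1.13). Spry2, Etv5, Spry4 and Dusp6 were lower where keratin was high, Spry2 at 0.609 (0.536 to 0.692) and 0.605 (0.535 to 0.684) and Etv5 at 0.654 (0.570 to 0.750) and 0.790 (0.696 to 0.898). Spry4 was at 0.820 (0.698 to 0.963) and 0.794 (0.694 to 0.907), and Dusp6 at 0.865 (0.786 to 0.953) and 0.850 (0.775 to 0.931). Etv4 varied little, with ratios between 0.853 and 1.12 in all 3 comparisons. The cells with the most immediate early and heat shock UMIs also had less keratin, so that these splits are not independent of each other. Over all cancer cells of the rule, Krt8 in the highest group was at 0.413 of its level in the lowest in control and at 0.544 in ENZ cells.

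**Figure D4:**
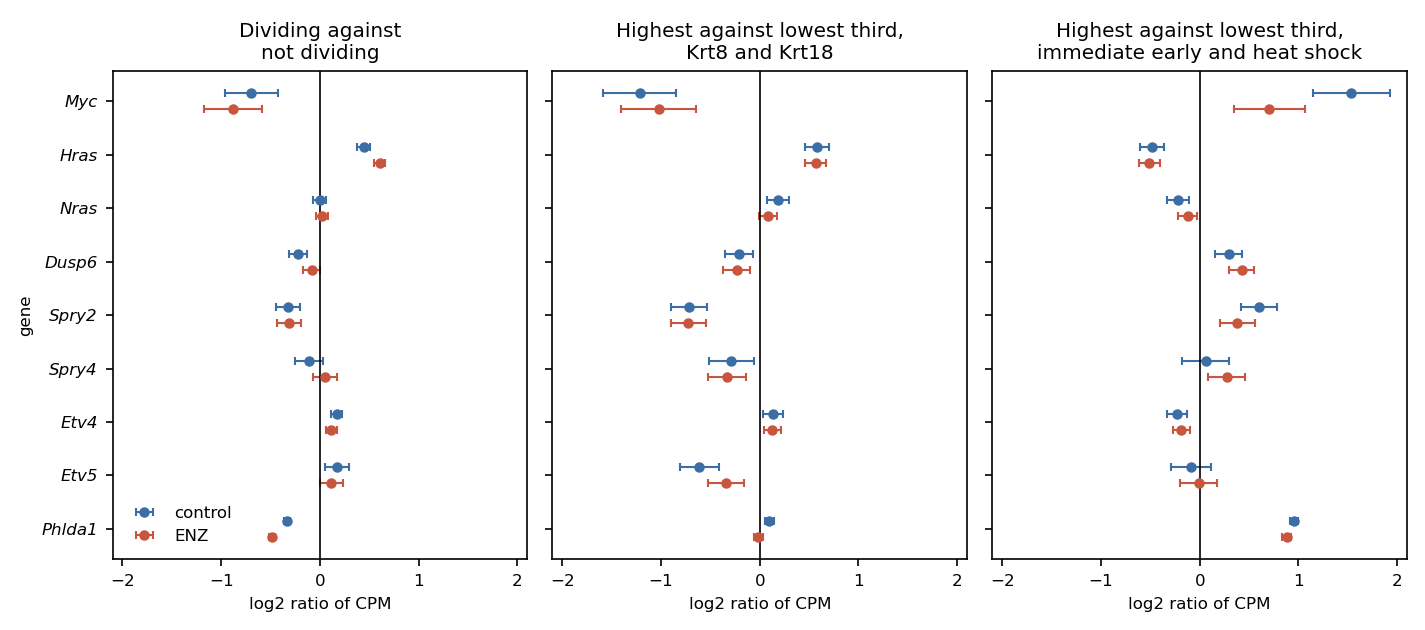
Log2 ratio of the level between groups of cancer cells for each of the 9 genes, in the control (blue) and ENZ (red) libraries, with 95% counting intervals as bars. Panels compare dividing with other cells (left), the groups of other cells with the most and least keratin (middle) and those with the most and least immediate early and heat shock UMIs (right), where Phlda1 was 1.94-fold and 1.84-fold higher and Hras was at 0.717 and 0.702.

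After thinning to 8000 UMIs a cell held on average 3.93 and 3.06 Phlda1 UMIs, with up to 33 and 38 in a cell, and the variance was 5.97 and 4.55 times the mean. For the other members, all with a mean under 1 UMI, that quotient lay between 0.990 and 1.27. It grows with the mean, so that the spread of the members was not ranked. Among genes with at least 50 CPM, those most like Phlda1 across cancer cells were the chemokine gene Cxcl1 (Spearman's rho 0.37 and 0.35), Nfkbia, which encodes an inhibitor of NF-kappaB (0.40 and 0.35), and Ier3 (0.41 and 0.31), over 3807 and 4290 cells. For Hras they were Ran (0.18 and 0.18), Eif5a (0.18 and 0.20) and Rps2 (0.17 and 0.17). For the other members the most similar genes had rho of at most 0.12, too weak in such sparse counts to be read, and any pair among the 9 had a rho between -0.04 and 0.07. Those closest to Myc were Fn1 and Col1a1, which fibroblasts that met the cancer cell rule also carry.

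Across the 7 classes of 50 or more cells in both libraries, 14 points that share libraries and depth, the genes most like Etv4 were Baiap2l1 (Pearson's r of log2(CPM + 1) 0.982), Hmga2 (0.978) and 9330188P03Rik (0.961). For Hras they were Mrpl34 (0.971), Nol12 (0.964) and S100a1 (0.962), for Nras Kmt5a (0.957), Brix1 (0.953) and Khsrp (0.951), and for Etv5 Hspa5 (0.956), Eif4e (0.899) and Plcb1 (0.898). Spry2 was most like Cemip2 (0.943), Fmnl3 (0.925) and Adamts14 (0.903), Spry4 most like Tjp1 (0.933), Rab11b (0.925) and Dda1 (0.925), and Myc most like Lbh (0.923) and Hivep3 (0.893). The values were lowest for Phlda1, with Dnaja2 (0.874), Cenpe (0.865) and Ppid (0.857), and Dusp6, with Rhob (0.809), Pgd (0.803) and Snx27 (0.789).

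The rest of the pathway was compared between ENZ and control cancer cells by lists, each over its genes with at least 10 CPM. The ERK output list holds the 6 feedback genes, Dusp4, Ccnd1, Epha2 and Epha4. None of its 8 genes passed 1.5-fold, and its median log2 ratio was -0.06, with Ccnd1, the cyclin of the G1 phase, at 171 and 201 CPM (ratio 1.17, 1.15 to 1.20) at the high end beside Spry4. Of 13 other genes of ERK feedback, 7 had a ratio below 1 and 1 was lower past 1.5-fold, as were 0.993% of all genes. This was Ier3, an early response gene, at 1303 and 844 CPM (0.648, 0.642 to 0.653). It did not pass 1.5-fold in cancer cells matched on immediate early and heat shock genes. Errfi1, an inhibitor of the EGF receptor, was at 156 and 127 CPM, and Rasa3 and Fosl1, with ratios of 1.12 (1.07 to 1.16) and 1.08 (1.05 to 1.11), had the highest lower bounds of the ratio. The median of these 13 was -0.01.

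In the cascade from Ras to ERK 22 of 26 genes had a ratio above 1, as did 57.7% of all genes, with a median log2 ratio of 0.20 against 0.05, and only Rras2, an R-Ras type GTPase, passed 1.5-fold (12.0 and 18.9 CPM, 1.58, 1.47 to 1.69), as 0.514% of all genes did upward. Gab1 and Rras were lowest at 0.847 and 0.858. All 11 receptors and ligands had ratios above 1 without passing 1.5-fold, with a median of 0.19. Met, the receptor of hepatocyte growth factor, was at 10.0 and 13.5 CPM (1.35, 1.24 to 1.46) and Egfr at 56.6 and 73.7 CPM (1.30, 1.26 to 1.35), and Pdgfrb (1.02) and Fgf1 (1.01) were lowest. None of the 13 genes of the Myc network passed 1.5-fold, with a median of 0.04. Mlxip (1.36) and Usp28 (1.21) were highest and the repressor partners Mxd3 (0.734) and Mxd1 (0.775) lowest. None of 24 Myc targets passed either, with a median of 0.08, and their ratios ran from 0.850 in Eif4a1 and 0.877 in Npm1 to 1.33 in Polr1b, a subunit of RNA polymerase I, and 1.40 in Tfrc, the transferrin receptor.

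**Figure D5:**
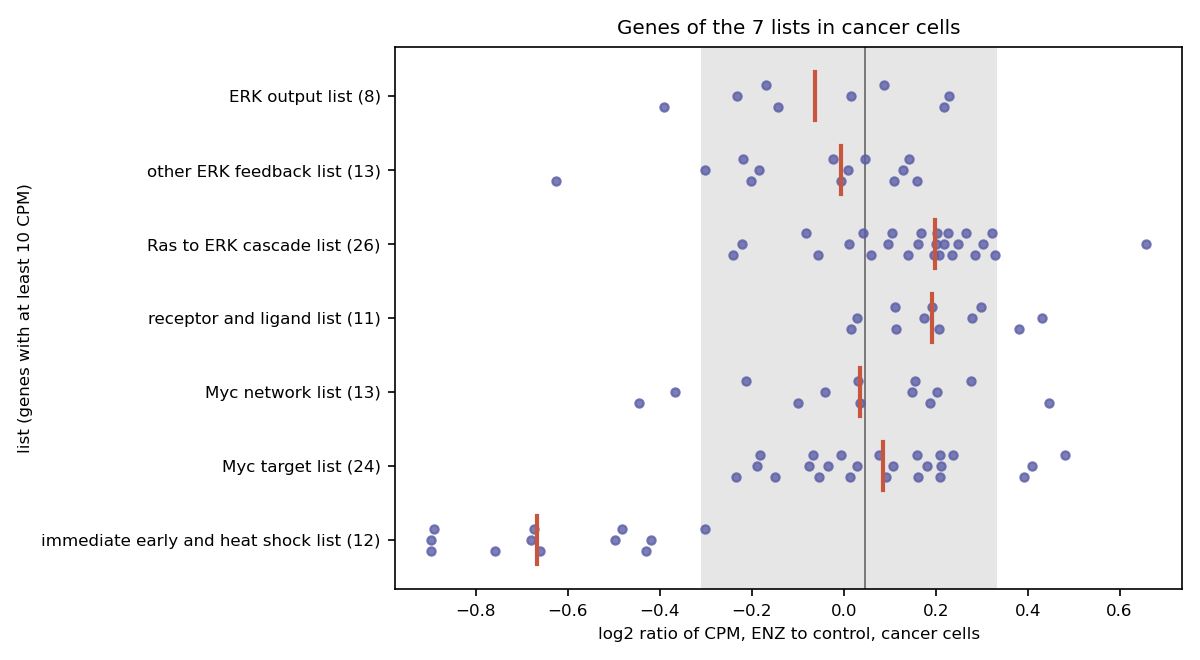
Log2 ratio of ENZ to control in cancer cells (x axis) for each gene with at least 10 CPM in the 7 lists (y axis, number of genes in parentheses). Each point is a gene, the red bar is the list's median, the vertical line is the median of all 8758 genes (0.05) and the grey band holds their 5th to 95th percentile. The immediate early and heat shock list had a median of -0.67 and the others lay between -0.06 and 0.20.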

How the data were processed

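Droplet scRNA-seq was made from 1 control and 1 ENZ library of RM-1 tumors. Raw counts of UMIs, by gene and barcode, are what the authors deposited. The file header names Cell Ranger 7.2.0, and the submitters' processing notes name Cell Ranger 2.1.1 and mm10, and which of them made the files is not settled. The counting of intronic reads is not given in the sources used here. From these counts, barcodes with at least 1000 UMIs and 200 genes were clustered (scanpy 1.11.5, leidenalg 0.10.2, 2000 variable genes, 30 principal components, 15 neighbours, resolution 1) without integration, after removal of 299 control (2.44%) and 283 ENZ (2.76%) doublets by Scrublet at a threshold of 0.241. The threshold is that of the ENZ library, because the automatic one of the control library, 0.657, marked 0%. Clusters were named from at least 3 markers at 2-fold or more, scored by mean log2 fold, which was settled with the clusters in view. A cluster of B cell and plasmacytoid dendritic cell markers stayed unnamed and out of the immune cells. Fibroblasts were cells of the fibroblast cluster with at least 5 collagen or Dcn UMIs and at most 1 endothelial marker UMI, also set after seeing that cluster. Cancer cells were taken by the rule alone.

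UMIs were summed per class and library, with exact Poisson and Clopper-Pearson intervals at 95%. Ratios carry the interval of the conditional binomial. A gene was counted as different past 1.5-fold between libraries, or past 2-fold between classes in both libraries, if it had at least 10 CPM in either side. For a class with no UMI the limit of 3 UMIs is given. The 9 genes, the lists and the comparisons were chosen with earlier results of these data known. Named were the 9 genes, the genes that check a label, the 2 highest and 2 lowest genes of each list by the bound of the ratio's interval nearer to 1, with every list gene past 1.5-fold, and the 3 genes most like each member. A few genes that this rule names are not reported here. Of the Myc targets so chosen, only the 2 lowest, Npm1 and Eif4a1, are given against other classes. The partners and regulators of Myc named against immune cells are all those past 2-fold in both libraries. Ratios and intervals were tested on simulated data. Alternatives covered the cell thresholds, doublets, scaling, free RNA, matching on depth and on immediate early and heat shock genes, division, level filters and the cell classes. Positions follow GENCODE M21, which holds 32235 of the gene identifiers.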

Additional observations from a re-analysis of the deposited data

Results flagged for a closer look

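The ratio of ENZ to control for Dusp6 was 0.890 in cancer cells and 1.39 in immune cells, and the 95% counting intervals lay on opposite sides of 1. The difference was not tested, since each condition has 1 library. In dividing cancer cells the ratio was 0.941 (0.882 to 1.004), and in cancer cells matched on immediate early and heat shock genes its log2 value was -0.03. Among immune types it was 0.905 (0.472 to 1.66) in dendritic cells and 1.15 (0.663 to 2.05) in T cells. Both intervals held 1 and also the 1.39 of all immune cells, so that a change in these types could not be told. In barcodes of at most 100 UMIs Dusp6 stood at 38.1 (control) and 49.1 CPM (ENZ), and the part of free RNA in the immune value was not tested.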

How the results depend on the processing

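Of 240 values of the counts and medians under the alternatives, 227 moved by less than 1.5 times or stayed within the counting interval, as did 688 of 783 values of single genes, of which 94 moved and 1 reversed. Ratios near 1 also changed sign, that of control cancer to immune cells under 3 of 18 alternatives for Dusp6 and 2 for Etv5. No alternative brought a member past 1.5-fold between ENZ and control cancer cells. The members at least 2-fold higher in cancer than in immune cells numbered 3 or 4 under all 18 alternatives, with Spry2 lost under 8 and Hras under 1. Myc, the 1 member lower than in immune cells, was under 2-fold (count 0) when CPM was averaged over cells, in cells that are not dividing, with immune cells of at least 8000 UMIs and with monocytes or macrophages alone, the last chosen after seeing the data, and kept its sign in all. With cancer cells matched on immediate early and heat shock genes, the median log2 ENZ to control ratio of the 6 feedback members in cancer cells was -0.0382, and 0 other ERK feedback, 1 receptor or ligand and 0 immediate early and heat shock genes passed 1.5-fold, the last by the construction of the match. Without a filter on level, 2 other ERK feedback genes, 1 receptor or ligand and 1 Myc network gene passed, and with at least 50 CPM 0 cascade genes did. Median-of-ratios scaling shifted every cancer to immune ratio by -0.22 and -0.23 and every cancer to fibroblast ratio by -0.24 and -0.35 (log2), after which Spry2 had a log2 ratio of 0.77 to ENZ immune cells, under 2-fold. With only the 31 and 17 fibroblasts that did not meet the cancer cell rule, an alternative added after seeing the data, 3 members (Nras, Etv4 and Etv5) were higher in cancer cells than in fibroblasts. Classes cut by UMIs left 4 control and 0 ENZ fibroblasts, so that no count could be had, and the log2 ratio of Etv4 to those 4 cells reversed to -0.23. The causes of these changes were not tested, except where the construction shows them. No paired analysis was possible because there is only 1 control and 1 ENZ library, for which no library could be left out either. The few UMIs of Myc in cancer cells and the small number of fibroblasts set the limit of depth.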
